A study of Mus musculus with 45 samples.

Results

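The genes that write, keep and remove DNA methylation were followed in the transcriptomes of embryonic stem cells (mESCs) of the mouse, in which the histone methyltransferase EHMT2 was degraded or inhibited. The set was a fixed list of 10 of the 55401 annotated genes in each gene table: Dnmt1, Dnmt3a, Dnmt3b, Dnmt3l, Uhrf1, Tet1, Tet2, Tet3, Tdg and Dppa3. All 10 were found once by their gene identifier in every table. The series held 45 libraries in 15 groups of 3.

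In 3 of its 4 experiments the cells carried a degron on EHMT2 (EHMT2-dTAG, made in KH2 mESCs of BL6/129 background), so that the compound dTAG-13 removes the protein. The time course compared DMSO with dTAG-13 after 24 h and 7 d. The washout experiment had 3 arms of 15 d: cells kept in DMSO, cells kept in the degrader, and cells that lost it at 7 d and grew on for 8 d (Recovery). Both used 3 clones, E2-17, E2-20 and E2-K71. In the sorting experiment, EHMT2-dTAG cells with a MERVL-GFP reporter received DMSO or dTAG-13 for 72 h and were sorted by reporter signal, the negative fraction being called mESC and the positive fraction 2-cell-like cells (2CLC), the minor population that resembles the embryo after its first cleavage. In the Dppa4 experiment, wild-type J1 mESCs (WT) and Dppa4 knockout mESCs (KO) without a degron were treated for 48 h with DMSO or with UNC0638, which inhibits the EHMT1 and EHMT2 enzymes. All cells grew in serum and LIF on feeder fibroblasts. The KO cells came from the parental J1 line. The labels give 3 clones of WT and KO cells but not the clone of each library, so clone and replicate cannot be told apart. Every dTAG comparison set treated against untreated cells that carried the same tag, and no untagged parental line was compared here.

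DNA methylation is the addition of a methyl group to cytosine, mostly where cytosine is followed by guanine (CpG). DNMT3A and DNMT3B place new methyl groups, with DNMT3L as a catalytically inactive partner, while UHRF1 recognises the half-methylated sites left by replication and brings DNMT1 to them. The TET enzymes oxidise methylcytosine, TDG cuts out the oxidised bases so that repair can restore cytosine, and DPPA3 keeps UHRF1 away from chromatin and shields the maternal genome of the zygote. Serum-grown mESCs express both the writing and the removing enzymes, and EHMT2 and EHMT1 are known to promote DNA methylation at a subset of their targets.

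In GENCODE vM21 on GRCm38 the writing genes were Dnmt1 (chromosome 9, 20907209 to 20959888, minus strand), Dnmt3a (chromosome 12, 3806007 to 3914443, plus strand), Dnmt3b (chromosome 2, 153649450 to 153687730, plus strand), Dnmt3l (chromosome 10, 78041947 to 78063622, plus strand) and Uhrf1 (chromosome 17, 56303321 to 56323486, plus strand). The removing genes were Tet1 (chromosome 10, 62804570 to 62908996, minus strand), Tet2 (chromosome 3, 133463679 to 133545139, minus strand), Tet3 (chromosome 6, 83362373 to 83459084, minus strand) and Tdg (chromosome 10, 82629828 to 82650799, plus strand), and Dppa3 lay on chromosome 6 (122626410 to 122630272, plus strand). Exons of Dnmt3a, Dnmt3l, Tet2 and Tdg overlapped exons of a gene on the other strand, over 133, 67, 43 and 367 bases. The counting used default settings, and the sources used here do not name the strand option, so those shares are uncertain. Tdg also has a copy, Tdg-ps, with 138 to 219 normalized counts per library in the Dppa4 experiment against 135 to 201.9 for Tdg itself, and reads of the pair could be split between them.

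RefSeq starts on GRCm38.p6 were at hand for 9 of the 10 genes. The 4 windows that follow are those of the pairs described side by side below, Dnmt3a with Dnmt3b and Tet1 with Tet2. Each holds the 250 bases before the start, 5′ to 3′ on the gene's strand, with CpG in capitals. The Dnmt3b window is chr2:153649199-153649448 on the plus strand and the Dnmt3a window chr12:3891494-3891743 on the plus strand, the most downstream of 3 listed starts. The Tet1 window is chr10:62887325-62887574 on the minus strand and the Tet2 window chr3:133544391-133544640 on the minus strand.
Dnmt3b: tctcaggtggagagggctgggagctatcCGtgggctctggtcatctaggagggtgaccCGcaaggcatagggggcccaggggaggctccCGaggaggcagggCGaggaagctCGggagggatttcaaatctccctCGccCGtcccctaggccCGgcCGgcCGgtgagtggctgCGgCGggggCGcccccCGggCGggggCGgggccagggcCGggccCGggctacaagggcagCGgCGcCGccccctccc
Dnmt3a: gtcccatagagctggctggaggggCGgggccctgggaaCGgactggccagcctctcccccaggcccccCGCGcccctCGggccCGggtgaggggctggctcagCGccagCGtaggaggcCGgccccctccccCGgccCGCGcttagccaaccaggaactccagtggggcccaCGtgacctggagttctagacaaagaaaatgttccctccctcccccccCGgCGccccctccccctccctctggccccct
Tet1: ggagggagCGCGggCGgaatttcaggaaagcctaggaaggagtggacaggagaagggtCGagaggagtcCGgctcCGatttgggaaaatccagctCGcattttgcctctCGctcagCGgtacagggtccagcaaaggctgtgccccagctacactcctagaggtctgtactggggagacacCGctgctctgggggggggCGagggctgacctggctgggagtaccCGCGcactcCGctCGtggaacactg
Tet2: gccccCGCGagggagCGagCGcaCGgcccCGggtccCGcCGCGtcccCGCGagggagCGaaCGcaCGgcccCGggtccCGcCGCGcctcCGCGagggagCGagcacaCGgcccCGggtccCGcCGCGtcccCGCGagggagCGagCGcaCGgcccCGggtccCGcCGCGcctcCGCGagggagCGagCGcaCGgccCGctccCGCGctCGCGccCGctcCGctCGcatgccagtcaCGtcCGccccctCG
The windows held 21 (Dnmt3b), 15 (Dnmt3a), 15 (Tet1) and 51 (Tet2) CpGs, against a median of 6.0 over 32851 listed promoters, of which 92.1% held at least 1. At least as many CpGs as Tet2 had were found in 0.07% of promoters, as many as Dnmt3b in 16.4%, and as many as Dnmt3a or Tet1 in 27.3%. The other Dnmt3a starts, 84764 and 84584 bases upstream, held 38 and 40. No methylation was measured in the files used here, so the windows are a description of the sequence.

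For the 3 degron experiments the files held the authors' means of normalized counts per group, without values per library. Differences there are given as log2 ratios of (mean + 1), with no SD and no test, and a gene was counted as past 2-fold at an absolute log2 ratio of at least 1. The share of genes past 2-fold is given over genes whose means averaged at least 10. Each experiment was normalized on its own, and the means summed over all genes to between 14402265 and 14906001 in the time course, 20488479 and 21894479 in the washout, and 8706492 and 11520046 in the sorting experiment. In bulk RNA, fewer cells of a type and less RNA per cell cannot be told apart. All 10 genes passed the minimum in all 10 comparisons.

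Levels between genes are compared per kilobase of annotated exon. In DMSO at 24 h the authors' means per kilobase put Uhrf1 (953) and Tet1 (937) highest, followed by Dnmt1 (314), Dnmt3l (245), Dppa3 (227), Tet2 (159), Dnmt3b (110) and Tdg (107), with Dnmt3a (51.2) and Tet3 (14.4) lowest. Neighbours in this order cannot be separated without a spread. Introns were not allowed in the alignment, so reads over exon junctions are missing and genes of many short exons read low. In the Dppa4 experiment, WT cells in DMSO had means per kilobase of 666 for Dnmt3l, 625 for Uhrf1, 361 for Dnmt3b, 244 for Tet1 and 196 for Dppa3, and 80.8 for Dnmt3a, 42.3 for Dnmt1, 38.3 for Tet2, 33.9 for Tdg and 4.85 for Tet3. Tet3 was thus the lowest of the 10 per kilobase in both tables, which were normalized separately.

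**Figure D1:**
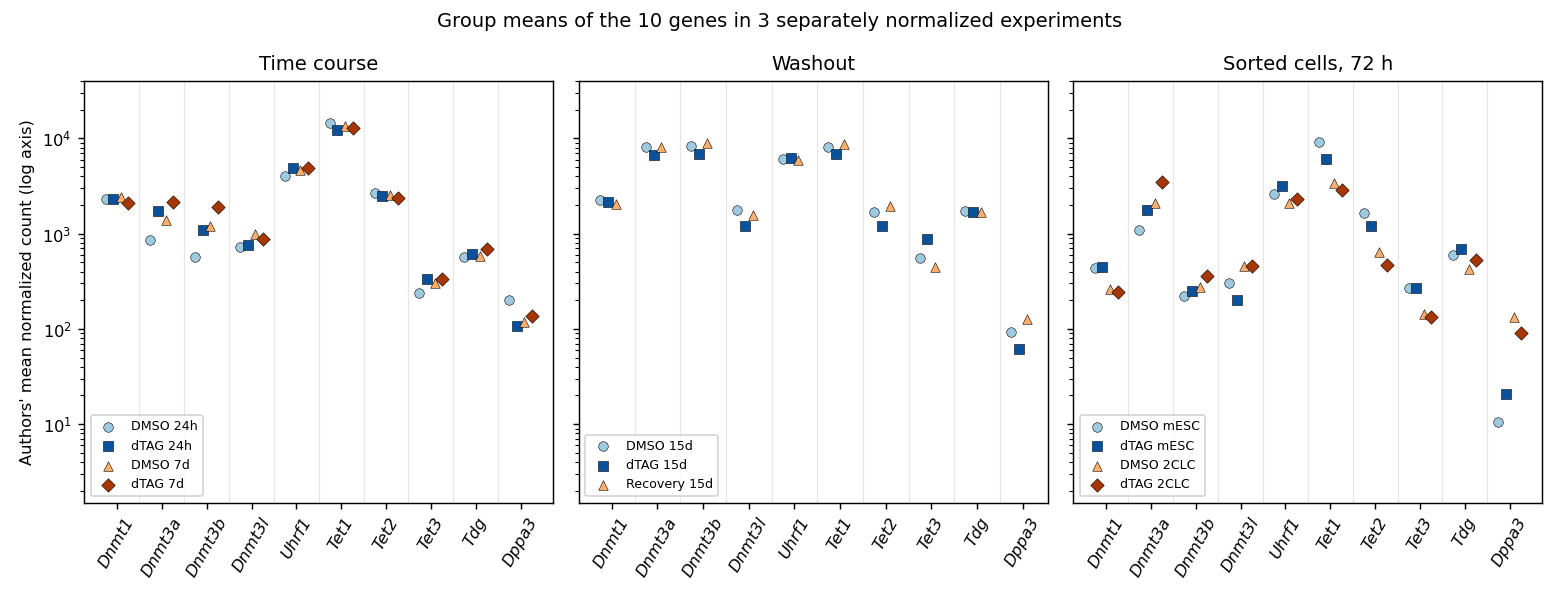
The authors' mean normalized count (log axis) of each gene in the groups of the time course, washout and sorting experiments, 1 point per group mean with no error bar. Dnmt3a and Dnmt3b are higher in every washout group than in any group of the other experiments, which were normalized separately. Tet1 and Tet2 are lower in both 2CLC groups than in both mESC groups.

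After 24 h of EHMT2 degradation Dnmt3a, Dnmt3b and Dppa3 lay farthest from control among the 10 genes. Dnmt3a had a mean of 853 in DMSO and 1733 in dTAG-13, a log2 ratio of 1.02. Dnmt3b had 562 and 1095, a log2 ratio of 0.96. Their partner Dnmt3l was close to level, with 732 and 753 (0.04). Dnmt3a was the 1 gene of 10 past 2-fold, beside 4.74% of 17970 genes, and the median of the 10 was 0.07 beside 0.00 for all genes. Dppa3 went the other way, from 202 to 106 (-0.92). Ratios at least as large, in either direction, were held by 4.52% of genes for Dnmt3a, 5.20% for Dnmt3b and 5.70% for Dppa3. The maintenance genes and the TET genes lay nearer to control: Uhrf1 had a log2 ratio of 0.27, Dnmt1 -0.02, Tet1 -0.23, Tet2 -0.10 and Tet3 0.48, and Tdg had 0.09.

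The 2 control groups of the time course differed by about as much. From 24 h to 7 d in DMSO, Dnmt3b went from 562 to 1203, a log2 ratio of 1.10, and Dnmt3a from 853 to 1394, a log2 ratio of 0.71. Dppa3 went from 202 to 118 (-0.77) and Dnmt3l from 732 to 983 (0.43). Dnmt3b was the 1 gene of 10 past 2-fold between the controls, beside 1.89% of 17806 genes. The DMSO group at 24 h thus held the lowest Dnmt3a and Dnmt3b and the highest Dppa3 of the 4 groups, and each dTAG ratio at 24 h rests on it.

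At 7 d, against the DMSO cells of the same day, Dnmt3a had 1394 in DMSO and 2172 in dTAG-13, a log2 ratio of 0.64. Dnmt3b had 1203 and 1927, a log2 ratio of 0.68. Both were again above control, and both below 2-fold, with ratios at least as large in 18.0% of genes for Dnmt3a and 16.4% for Dnmt3b. Dppa3 had 118 and 136 (0.21), the opposite sign to 24 h. None of the 10 genes was past 2-fold, beside 8.39% of 17993 genes, and their median was 0.10 beside 0.01. The other 7 genes lay between -0.21 for Dnmt1 and 0.24 for Tdg. Sums of 12 feeder markers were 18127 in DMSO and 15948 in dTAG-13 at 24 h, and 12733 and 14433 at 7 d, and their part in these ratios was not tested.

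After 15 d the order of Dnmt3a and Dnmt3b was turned. Dnmt3a had means of 8153 in DMSO, 6720 in dTAG-13 and 8187 in Recovery. Dnmt3b had 8361, 6853 and 8841. Dnmt3l had 1782, 1195 and 1582. In dTAG-13 the log2 ratios to DMSO were -0.28, -0.29 and -0.58, and in Recovery 0.01, 0.08 and -0.17. All 3 de novo genes were thus below control in 15 d dTAG-13 and nearer to it in Recovery. Ratios in dTAG-13 at least as large, in either direction, were held by 35.6% of genes for Dnmt3a, 34.3% for Dnmt3b and 12.5% for Dnmt3l. The 15 d groups are a separate experiment, so time and experiment cannot be told apart in the turned order.

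Tet2 and Tet3, which oxidise methylcytosine, stood on opposite sides of control at 15 d. Tet2 had means of 1708 in DMSO, 1198 in dTAG-13 and 1949 in Recovery. Tet3 had 554, 872 and 443. Against DMSO the log2 ratio in dTAG-13 was -0.51 for Tet2 and 0.65 for Tet3. Tet1 had 8050, 6837 and 8809, with a log2 ratio of -0.24 in dTAG-13. Dppa3 had 91.9, 61.8 and 126, so that its lowest mean was again in dTAG-13 (-0.57). Dnmt1, Uhrf1 and Tdg stayed between -0.06 and 0.02 in dTAG-13.

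None of the 10 was past 2-fold in dTAG-13 against DMSO at 15 d, beside 5.12% of 17377 genes, with a median of -0.26 beside -0.02. None was past 2-fold in Recovery against DMSO, beside 2.39% of 17021 genes, with a median of -0.01 beside -0.01. Recovery against dTAG-13 had 1 of 10, Dppa3 at 1.01, beside 7.13% of 17411 genes. Tet3 at -0.98 lay just inside that limit. The 3 comparisons share their groups and are not independent of each other. Feeder marker sums were 13786 in DMSO, 16810 in dTAG-13 and 7971 in Recovery. Primitive endoderm markers summed to 655, 1127 and 562, and of 7 that passed the minimum mean all 7 were above DMSO in dTAG-13 (median log2 ratio 0.76, 2 past 2-fold) and 6 were past 2-fold lower in Recovery against dTAG-13. Of 7 formative epiblast markers, 6 were above DMSO in dTAG-13 (median 0.59, 1 past 2-fold), with sums of 2110, 3033 and 2572. The part of these markers in the 15 d ratios was not tested.

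The 15 d control level of Dnmt3a and Dnmt3b differed from the controls of the time course and of sorted mESC by more than any dTAG group differed from its control. For Dnmt3a, the controls of the time course and sorted mESC lay nearer to each other than to the 15 d control. As parts per 1000000 of the summed gene means, Dnmt3a in DMSO was 59.0 at 24 h, 96.8 at 7 d, 379.7 at 15 d and 124 in sorted mESC. Dnmt3b was 38.9, 83.5, 389 and 25.2. In sorted DMSO 2CLC the values were 217 for Dnmt3a, nearer to the 15 d control, and 28.2 for Dnmt3b. Tet1 ran the other way in the washout, with 1002 at 24 h, 931 at 7 d, 375 at 15 d and 1035 in sorted mESC. The tables were normalized separately and the sorted libraries were made by a low-input method, so experiment and time cannot be told apart in these levels.

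**Figure D2:**
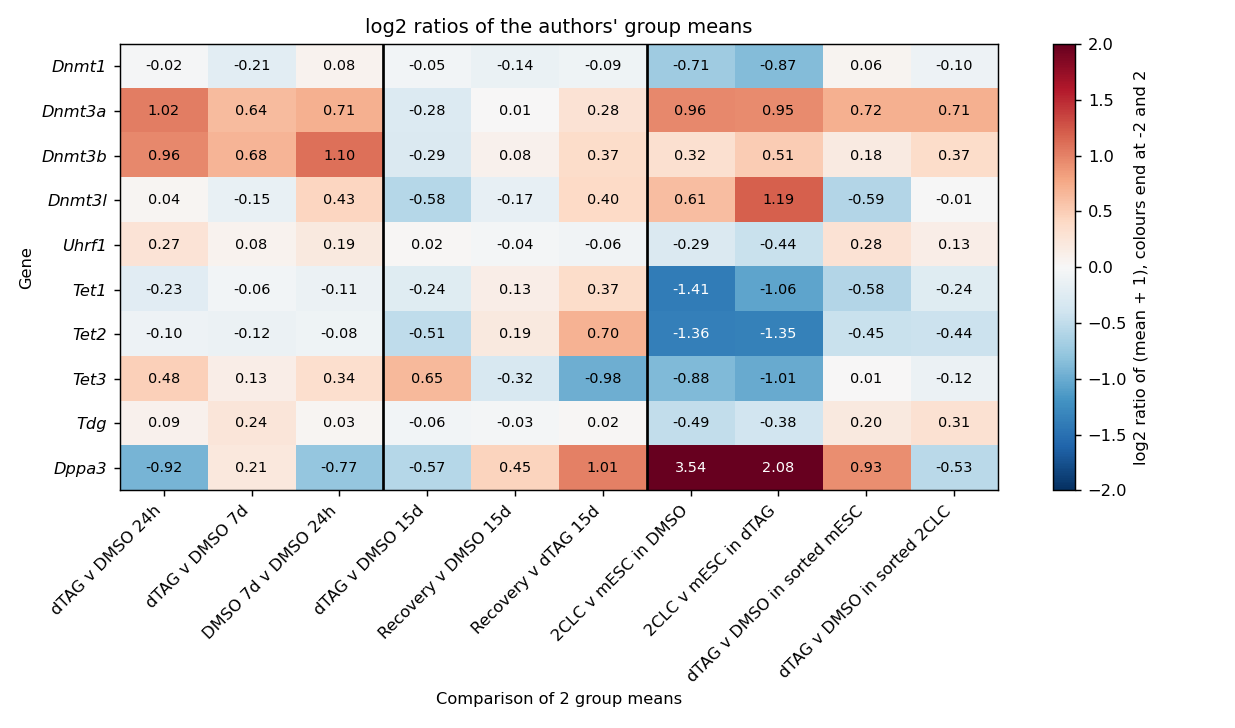
log2 ratio of (mean + 1) for each gene (rows) in 10 comparisons of the authors' group means (columns), with vertical lines between the experiments. Dnmt3a reads 1.02 at 24 h and -0.28 at 15 d, and Tet1 and Tet2 are at -1.06 or below in 2CLC against mESC.

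In the group means, with no test, the TET genes and Dnmt1 were lower in 2CLC than in mESC and Dnmt3a was higher. Tet1, the main TET enzyme of mESCs, had a mean of 9059 in GFP-negative and 3419 in GFP-positive DMSO cells, a log2 ratio of -1.41. Tet2 had 1631 and 634 (-1.36), and Tet3 had 267 and 145 (-0.88). Thus all 3 TET means were lower in the 2-cell-like cells. Among the writers, Dnmt3a had 1088 and 2117 (0.96), Dnmt3l 302 and 461 (0.61) and Dnmt3b 220 and 275 (0.32). The maintenance genes were on the lower side, with 433 and 265 for Dnmt1 (-0.71) and 2587 and 2121 for Uhrf1 (-0.29), and Tdg had 596 and 423 (-0.49). Ratios at least as large, in either direction, were held by 15.3% of genes for Tet1, 16.0% for Tet2 and 27.9% for Tet3. The shares were 35.5% for Dnmt1 and 24.9% for Dnmt3a. Dppa3, which the cleavage-stage embryo carries from the oocyte, had 10.4 and 132, a log2 ratio of 3.54. Its mESC mean was low, and the ratio ran from 2.8 to 3.665 with other values added to the means or with centring on the median gene.

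In dTAG-13 the same sort gave the same signs for all 10 genes. How many of all genes kept their sign was not counted. Tet1 had 6043 in mESC and 2895 in 2CLC (-1.06), Tet2 1193 and 469 (-1.35) and Tet3 268 and 133 (-1.01). Dnmt3a had 1790 and 3465 (0.95), Dnmt3l 200 and 459 (1.19) and Dnmt3b 249 and 355 (0.51). Dnmt1 had 451 and 246 (-0.87), Uhrf1 3150 and 2321 (-0.44), and Dppa3 20.8 and 91.1 (2.08, and 1.714 to 2.131 over the same alternatives). The mESC and 2CLC libraries of the DMSO and dTAG-13 comparisons are separate, but whether their ratios differ was not tested.

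Of the 10 genes, 3 were past 2-fold between 2CLC and mESC in DMSO (Tet1, Tet2 and Dppa3), beside 23.7% of 17277 genes, which is near the background. In dTAG-13 they were 5 (Tet1, Tet2, Tet3, Dnmt3l and Dppa3), beside 21.1% of 17277 genes. Medians of the 10 were -0.39 and -0.41, beside -0.04 and -0.05 for all genes. The sort was checked by 12 markers of the 2-cell stage, all past 2-fold higher in both comparisons, with sums of 812 in mESC and 152715 in 2CLC in DMSO. Feeder marker sums were 7841 and 4941 in DMSO and 9723 and 8939 in dTAG-13, so both sorted fractions held such transcripts. The sums were lower in 2CLC, while of 9 feeder markers that passed the minimum mean 3 were past 2-fold higher in DMSO (median log2 ratio 0.85) and 5 in dTAG-13 (1.16), with 0 lower. Their part was not tested.

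Within the sorted fractions dTAG-13 gave Dnmt3a a similar ratio in both. Its log2 ratio was 0.72 in mESC (1088 and 1790) and 0.71 in 2CLC (2117 and 3465). Dnmt3b had 0.18 and 0.37. Tet2 had -0.45 and -0.44, and Tet1 -0.58 and -0.24. Dnmt3l had -0.59 in mESC, from 302 to 200, and -0.01 in 2CLC. Dppa3 had 0.93 in mESC, from 10.4 to 20.8, and -0.53 in 2CLC, from 132 to 91.1. At such low means its mESC ratio ran from 0.5938 to 0.9985 over the same alternatives. None of the 10 was past 2-fold, beside 6.86% of 16484 genes in mESC and 7.35% of 17523 genes in 2CLC. Of 9 feeder markers, 5 in mESC and 6 in 2CLC were past 2-fold higher in dTAG-13 (median log2 ratios 1.02 and 1.26), and their part in these ratios was not tested. Whether the ratios of Dnmt3l or Dppa3 differed between fractions was not tested. Dnmt3a was thus above control after 24 h, 72 h and 7 d of dTAG-13 and below it after 15 d, in group means alone and over separate experiments.

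The other genes of the pathway were given by lists. Of 7 partners of maintenance methylation, 8 cofactors and partners of the TET enzymes, 10 methylation targeting factors and 10 genes that supply methyl groups, none was counted past 2-fold in any of the 10 comparisons. Over all genes the share past 2-fold ran from 1.89% to 23.7%. Of 7 readers of methylated CpG, Mbd5 was past 2-fold higher in 2CLC, from 123 to 1464 in DMSO (3.57) and from 166 to 2959 in dTAG-13 (4.15). In sorted 2CLC it was also past 2-fold higher in dTAG-13 than in DMSO (1.01). Another reader, Mbd6, was past 2-fold lower in Recovery against 15 d dTAG-13 (-1.29). Of 14 demethylation and repair partners, Neil3, a DNA glycosylase, had means of 189 in DMSO and 64.5 in dTAG-13 at 7 d (-1.53), and Apobec1, a cytidine deaminase, 333 and 136 (-1.29). Gadd45g, linked to active demethylation, had 109 in DMSO and 232 in dTAG-13 at 24 h (1.08). In 2CLC against mESC in DMSO, 13 of the 14 passed the minimum mean, and 2 of them were past 2-fold higher and 4 lower, beside 23.7% of all genes in either direction, with Mbd4 at 1.11 and Neil1 at -1.35.

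A further list held 17 germline genes known to carry DNA methylation at their promoters in somatic cells. After dTAG-13, 0 were past 2-fold higher and 1 lower at 24 h, and 0 in either direction at 7 d and at 15 d. The shares of all genes past 2-fold were 4.74%, 8.39% and 5.12%. In 2CLC against mESC 14 of the 17 passed the minimum mean, and 8 of these were past 2-fold higher in DMSO and 8 in dTAG-13, with 0 lower in both, beside 23.7% and 21.1% of all genes past 2-fold in either direction. Stk31 had 12.8 and 162 in DMSO (3.57), and Mael, a piRNA pathway gene, 11.4 and 94.7 (2.95). The intracisternal A particle IAPEz-int, a retroviral family held down by DNA methylation, had means of 14670 in DMSO and 14667 in dTAG-13 at 24 h, 14227 and 12770 at 7 d, and 11807 and 8992 at 15 d. It had 10604 in mESC and 21536 in 2CLC in DMSO, and 7526 and 31751 in dTAG-13. The dTAG means of IAPEz-int were thus at or below their controls in unsorted cells and in sorted mESC, and above the control in sorted 2CLC. The long terminal repeat entry IAPLTR1_Mm, in DMSO and dTAG-13, had 638 and 659 at 24 h, 671 and 631 at 7 d, and 521 and 401 at 15 d. In sorted mESC it had 396 and 468, above the control, and in sorted 2CLC 1012 and 1652. Reads of repeats were placed at random among their copies.

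The Dppa4 experiment had values for each library, and its 12 libraries held 8399885 to 12710949 gene reads. The Dppa4 transcript itself had 700.4 to 920 normalized counts in the 6 WT libraries and 0 in all 6 KO libraries. The test was limma on log2 of the normalized count plus 1 over 17258 genes, and a gene passed at an adjusted p (Benjamini-Hochberg) under 0.05. The p-values measure the spread between the numbered replicates. All 10 genes were tested, and 2 of them passed in KO against WT, both lower.

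Dppa3 was lower in KO than in WT. Its normalized counts were 38.4, 83.6 and 401 in WT DMSO, and 26.4, 49.5 and 224 in WT UNC0638. In KO they were 4.89, 7.13 and 3.48 in DMSO, and 8.28, 8.60 and 2.62 in UNC0638. Every KO library was below every WT library, while the WT libraries themselves ran from 26.4 to 401. The log2 fold change in limma, KO against WT, was -4.20 (SE 0.80, adjusted p = 0.0067) in DMSO and -3.30 (SE 0.80, adjusted p = 0.029) in UNC0638. In UNC0638 it did not pass without WT UNC0638 replicate 2 (-3.52), WT UNC0638 replicate 3 (-2.44) or KO UNC0638 replicate 3 (-2.84).

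Sums of the 12 2-cell markers followed the same order among the WT libraries as Dppa3 within each treatment. They were 86.1, 390 and 1631 in DMSO and 766, 983 and 6224 in UNC0638 for replicates 1, 2 and 3, against 3.23 to 19.2 in the 6 KO libraries. Of 8 tested markers 5 passed in DMSO and 7 in UNC0638, all lower in KO, beside 4.25% and 2.71% of all genes lower. The part of 2-cell-like cells in the Dppa3 counts was not tested.

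Dnmt3b, the de novo enzyme most active in the early epiblast, was lower in KO. It had 1415, 2261 and 1861 normalized counts in WT DMSO and 1287, 2130 and 2212 in WT UNC0638. In KO it had 564, 941 and 1158 in DMSO, and 633, 704 and 1072 in UNC0638. The 6 KO libraries lay below the 6 WT libraries with no overlap. The mean was 1845 ± 423 in WT and 888 ± 301 in KO in DMSO (SD, n = 3 each). The limma log2 fold change was -1.09 (SE 0.28, adjusted p = 0.029) in DMSO and -1.22 (SE 0.28, adjusted p = 0.021) in UNC0638. The DMSO call was lost without WT DMSO replicate 2 (-0.93) or 3 (-1.07) or KO DMSO replicate 1 (-0.79) or 2 (-1.16). The UNC0638 call was lost without WT UNC0638 replicate 2 (-1.11) or 3 (-1.08) or KO UNC0638 replicate 1 (-1.07) or 2 (-1.15).

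Dnmt3a, the other de novo enzyme, had 1201, 1555 and 1280 normalized counts in WT DMSO and 1027, 1589 and 1600 in WT UNC0638. In KO it had 797, 862 and 975 in DMSO and 887, 929 and 891 in UNC0638. Its KO libraries too lay wholly below its WT libraries. The limma log2 fold change was -0.61 in both treatments (SE 0.18), with adjusted p = 0.053 in DMSO and 0.066 in UNC0638, so that it did not pass. It passed in both with DESeq2 on the recovered reads and without WT UNC0638 replicate 1 (-0.61 in DMSO and -0.82 in UNC0638), and in DMSO also without KO UNC0638 replicate 3. Non-overlap of all 6 KO below all 6 WT libraries was met by 3 of the 10 genes (Dnmt3a, Dnmt3b and Dppa3), beside 3.51% of 17258 genes.

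Their partner Dnmt3l was not on the lower side. It had 2007, 1583 and 2378 normalized counts in WT DMSO, and 2195, 2905 and 2907 in KO DMSO. In UNC0638 it had 1626, 1288 and 1907 in WT, and 1432, 2032 and 3598 in KO. The limma log2 fold change was 0.43 in DMSO (95% interval -0.13 to 0.99) and 0.46 in UNC0638 (-0.10 to 1.02), which did not pass.

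Among the TET genes Tet2 was the farthest from WT in DMSO. It had 840, 613 and 485 normalized counts in WT and 1143, 1114 and 1836 in KO. The limma log2 fold change was 1.07 (SE 0.36, adjusted p = 0.086), which did not pass, though it did without KO UNC0638 replicate 3, a library that enters this contrast only through the shared estimate of the spread. In UNC0638 Tet2 had 1134, 775 and 651 in WT and 1149, 1598 and 443 in KO, and the log2 fold change was 0.17 (95% interval -0.60 to 0.94).

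Tet1 had 3853, 3595 and 3865 normalized counts in WT DMSO and 5129, 4576 and 5451 in WT UNC0638. In KO it had 6080, 3805 and 6162 in DMSO and 5604, 4518 and 1522 in UNC0638. KO UNC0638 replicate 3 stood apart from the others, with the lowest Tet1, Tet2, Tet3 and Dppa3 and the highest Dnmt3l of all 12 libraries. Tet3 was at 44.5 to 129 normalized counts across the libraries. KO against WT gave Tet1 0.47 in DMSO and -0.58 in UNC0638, and Tet3 0.12 and -0.64, and none of these passed.

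Dnmt1 had 208 to 429 normalized counts over the 12 libraries, Uhrf1 2239 to 3382 and Tdg 135 to 201.9. Their log2 fold changes in KO against WT were 0.19, 0.22 and -0.05 in DMSO, and 0.07, 0.10 and -0.03 in UNC0638. The 95% intervals reached from -0.34 to 0.72 for Dnmt1, from -0.10 to 0.54 for Uhrf1 and from -0.52 to 0.41 for Tdg in DMSO. None of the 3 passed.

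**Figure D3:**
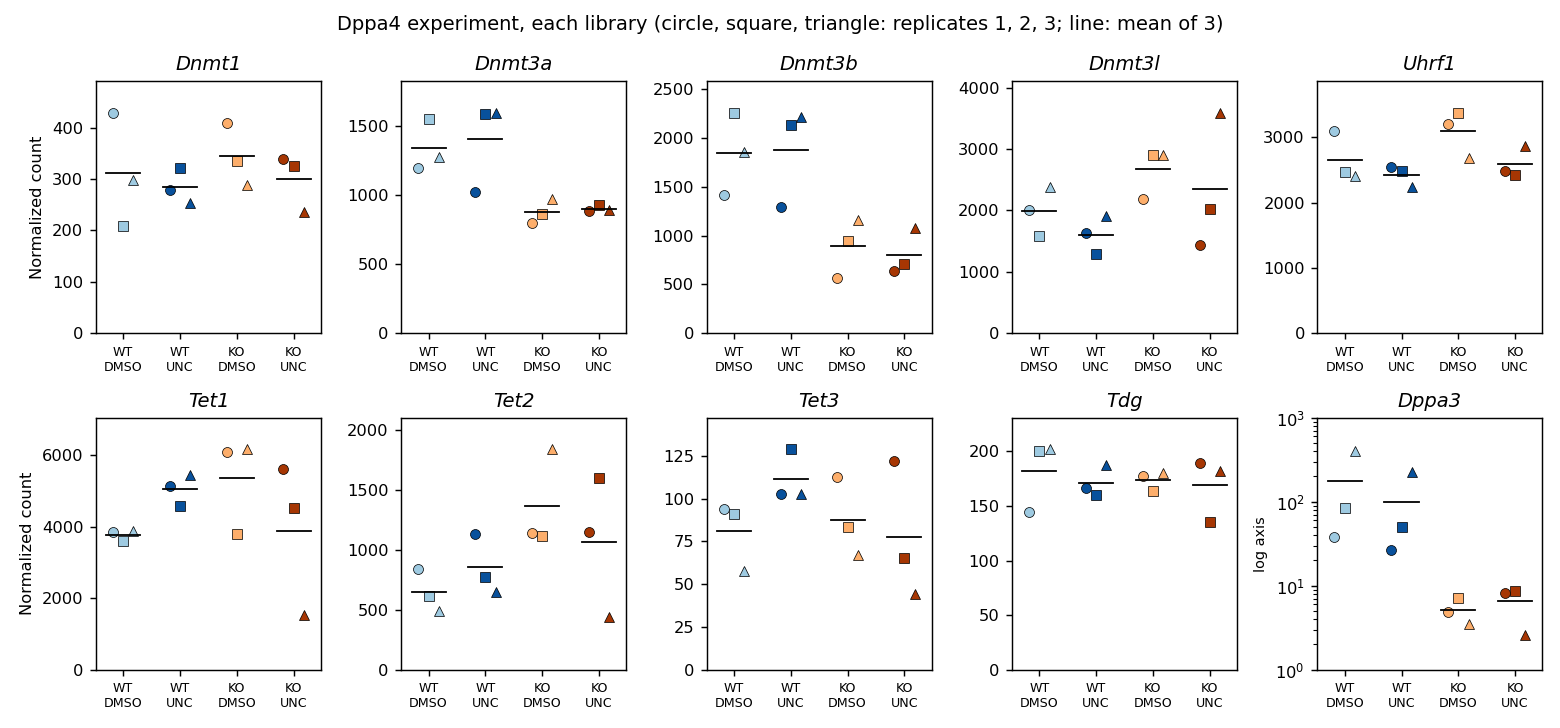
Normalized count of each gene in each library of the Dppa4 experiment (log axis for Dppa3 only, axes from 0 otherwise), 3 libraries per group, with a line at the mean. For Dnmt3a, Dnmt3b and Dppa3 the 6 KO points lie below the 6 WT points.

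Over all genes, 6.63% passed in KO against WT in DMSO (1145 of 17258, 4.25% lower) and 4.47% in UNC0638 (772 of 17258, 2.71% lower), beside 2 of 10 here in each. The median log2 fold change of the 10 was 0.15 in DMSO and -0.30 in UNC0638, beside -0.03 and -0.04 for all genes. With the study's further limit of an absolute log2 fold change of at least 1, the same 2 genes passed in each. Over all genes, 765 of 17258 passed that limit in DMSO and 567 of 17258 in UNC0638.

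None of the 10 genes passed for UNC0638 against DMSO. In WT, log2 fold changes of UNC0638 against DMSO ran from -0.70 for Dppa3 to 0.48 for Tet3. For Dnmt3a the value was 0.04 (95% interval -0.34 to 0.43) and for Dnmt3b 0.01 (-0.58 to 0.60), so that a 2-fold rise of either lay outside the interval. Tet1 had 0.42 (-0.29 to 1.13). Over all genes limma called 0 of 17258 (0% of genes) in WT, with 1504 at an unadjusted p under 0.05, while edgeR called 0 and DESeq2 15 of the 16719 genes to which it gave an adjusted p. Within the 3 numbered WT pairs, Dppa3 and Dnmt3l were lower in UNC0638 in 3 of 3, and Tet1, Tet2 and Tet3 higher in 3 of 3, and none of these passed with the replicate block. The share of all genes with the same direction in 3 of 3 pairs was not counted, so these directions are not read as an effect of UNC0638. The pairs themselves rest on correlations in the same libraries. In KO, values ran from -0.63 for Tet1 (-1.34 to 0.08) to 0.20 for Dppa3, beside 0.585% of genes called, 101 of 17258.

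Whether UNC0638 acted differently in KO and WT was tested as a difference of the effects. It was largest for Tet1, at -1.05 (95% interval -2.05 to -0.05, unadjusted p = 0.041 and adjusted p = 0.78 in limma), and did not pass. Without KO UNC0638 replicate 3 it was -0.47. For Dnmt3a the difference was 0.00 (-0.54 to 0.54) and for Dnmt3b -0.13 (-0.96 to 0.70). Over all genes limma and edgeR each called 0 of 17258 (0% of genes), with 1076 at an unadjusted p under 0.05 in limma. DESeq2 called 0 of the 3329 genes to which it gave an adjusted p, and Dnmt1, Tdg, Tet3 and Dppa3 were not among these.

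**Figure D4:**
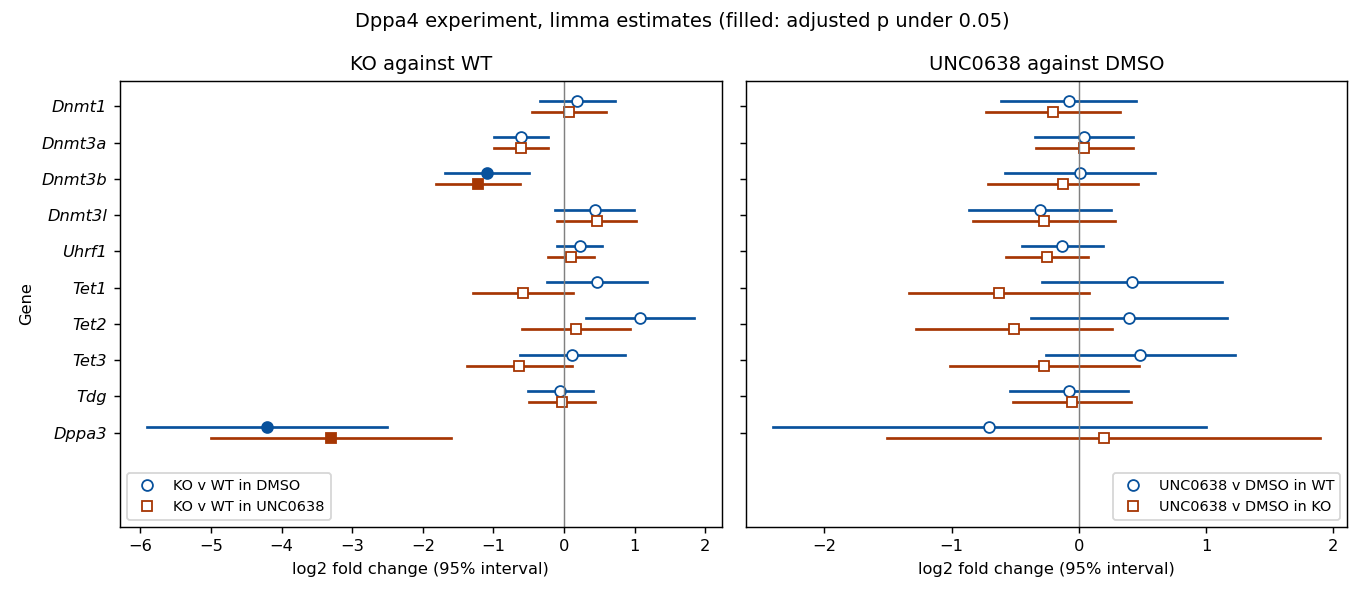
limma log2 fold change of each gene with its 95% interval in the Dppa4 experiment, KO against WT on the left and UNC0638 against DMSO on the right, filled where the adjusted p was under 0.05. Dppa3 (-4.20 and -3.30) and Dnmt3b (-1.09 and -1.22) are filled on the left, and no gene is filled on the right.

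The remaining pathway genes gave few calls in the Dppa4 experiment. In KO against WT in DMSO, 2 of 7 maintenance partners passed, both lower, beside 4.25% of all genes lower. They were Cdca7l, which works with the remodeller HELLS, at -0.78 (adjusted p = 0.030 in limma), and Pcna, the replication clamp, at -0.66 (adjusted p = 0.044 in limma). Among the genes for methyl supply Mat2a, which makes S-adenosylmethionine, passed at -0.61. None of 7 readers, 13 tested repair partners and 9 tested targeting factors passed, beside 6.63% of all genes in either direction. In UNC0638, Cdca7l passed at -0.77, and the readers, repair partners, targeting factors and genes for methyl supply had no call. The share of all genes called there was 4.47%, with 2.71% lower. UNC0638 against DMSO in KO gave 1 call over the 6 lists, Idh1 at 0.96, beside 0.585% of all genes called.

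Of the 17 germline genes, 9 could be tested and 5 passed in KO against WT in each treatment, all lower, beside 4.25% of all genes lower in DMSO and 2.71% in UNC0638. They were Dazl, Ddx4, Mael, Mov10l1 and Tex19.1. Tex19.1 had 1090 to 2639 normalized counts in WT and 212 to 1004 in KO, Mael 24.6 to 86.5 and 0 to 9.17, and Dazl 9.31 to 35.2 in WT and 0 in all 6 KO libraries. These 5 genes were picked as passing lower, so their KO ranges lying below their WT ranges adds no further support. Of the 9 tested genes, 7 had a log2 fold change below 0 in DMSO and 8 in UNC0638. Elsewhere in the list, ranges overlapped for Brdt (0 to 10.4 in WT, 6.11 to 22.1 in KO) and Tdrkh (6.98 to 56.1 and 15.1 to 37.6). Of the other cell type lists in DMSO, 3 of 12 pluripotency markers were higher in KO (Klf4, Tbx3 and Fgf4), 1 of 10 tested feeder markers was lower (Thy1), 1 of 7 formative epiblast markers was lower (Sox3), and none of 6 tested primitive endoderm markers passed. Over all genes, 412 of 17258 were called higher and 733 lower in KO in DMSO. Feeder marker sums were 6616 to 10164 in WT and 5962 to 7768 in KO. All 10 tested feeder markers had a log2 fold change below 0 in KO against WT in both treatments. Their median was -0.64 in DMSO and -0.39 in UNC0638, beside -0.03 and -0.04 for all genes. The part of feeder transcripts in the Dnmt3a and Dnmt3b values was not tested.

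Genes whose profile over the 12 libraries was most like that of Dnmt3b, by Pearson r of log2 values among the 11664 genes whose mean reached 50, were Esrp1 (0.97), Smim3 (0.97) and Ccnd1 (0.96). For Dppa3 they were Nt5dc2 (0.96), Septin3 (0.95) and Rragb (0.94). These libraries share the WT and KO split, which weighs on each r.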

How the data were processed

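RNA-seq of 45 libraries was analysed from the deposited gene and repeat tables. According to the submitters' processing notes and the study's methods, the authors trimmed reads with Trim Galore 0.6.7, aligned them to mm10 with STAR 2.7.10 without introns, wrote each multi-mapping read once at a random place, counted genes of GENCODE vM25 and repeats with TEcounts, and divided counts by DESeq2 1.34.0 size factors. The deposited signal values are these normalized counts, as the authors' group means for the 3 degron experiments and per library for the Dppa4 experiment. Further deposited tables of the authors' own comparisons (fold changes and p-values) were not used.

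From the means, log2 ratios of (mean + 1) were computed with no test. For the Dppa4 experiment, limma 3.58.1 with a trend was fitted to log2 of the normalized count plus 1 (R 4.3.3), with 4 groups, 5 contrasts, the edgeR expression filter (17258 of 55401 genes) and Benjamini-Hochberg adjustment over all genes tested. Whole reads were recovered from 100% of values (tolerance 0.01) and used for edgeR 4.0.16 and DESeq2 1.42.0 as alternatives. On simulated libraries for UNC0638 against DMSO in WT (16636 genes, dispersion 0.05) limma found 44 of 100 genes changed 2-fold and 100 of 100 changed 4-fold, with 8 other calls. Replicates with the same number deviated together in WT (correlations of 0.25, 0.10 and 0.43 between DMSO and UNC0638), so the numbers were taken to pair the WT libraries. The lowest of these values was below the highest between KO DMSO and KO UNC0638 (0.15).

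The 10 genes and the 12 further lists were chosen with earlier results of these data known. All 10 are described, and of the other lists mainly counts, with genes named from the 3 with the lowest adjusted p or the largest ratio, and Dppa4 as the targeted gene; the 5 germline genes were named after their values were seen. Some results of the methyl supply and TET cofactor lists are not reported here. Alternatives were other tools, scalings, pseudocounts, filters and thresholds, a replicate block, and each library left out.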

Additional observations from a re-analysis of the deposited data

How the results depend on the processing

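In the Dppa4 experiment the number of the 10 genes passing in KO against WT in DMSO was 2 and became 4 with the replicate block (Dnmt3a and Tet2 added), and 1 to 4 with a library left out. In UNC0638 it was 2, and 0 to 3 with a library left out. The replicate numbers were not shown to pair KO with WT or the KO libraries among themselves. Same-number correlations were 0.15, -0.09 and 0.01 between KO DMSO and KO UNC0638, and from -0.086 to 0.165 between WT and KO. For UNC0638 against DMSO and for the difference of its effects, 0 of the 10 passed under every alternative run, the replicate block within genotype, chosen after seeing the data, included (for the difference, DESeq2 gave 4 of the 10 no adjusted p). Dppa3 in DMSO passed in all 19 alternatives, with log2 fold changes of -5.07 to -3.27 and adjusted p of 0.00015 to 0.037 over limma, edgeR and DESeq2. Dnmt3b passed in 15 of 19 in each treatment. Dnmt3a in DMSO passed in 4 of 19, namely DESeq2, the replicate block, and without WT UNC0638 replicate 1 or KO UNC0638 replicate 3, and in UNC0638 in 3 of 19. Over all genes, calls in KO against WT in DMSO were 1145, with 1744 by DESeq2, 1996 with the replicate block and 319 to 1822 with a library left out (319 without WT DMSO replicate 2). In UNC0638 they were 772, with 1334 by DESeq2, 1244 with the block and 201 to 890 with a library left out. For UNC0638 in KO they were 101, with 44 by edgeR, 519 by DESeq2, 12 without the expression filter, 346 with the block, 306 with the block within genotype and 2 to 615 with a library left out. The cause of these shifts was not tested. In the group means, a 1.5-fold limit counted 3 of the 10 at 24 h (14.0% of all genes), 2 at 7 d (20.5%), 3 between the DMSO groups (8.86%), 1 in dTAG-13 (12.3%) and 3 in Recovery against dTAG-13 (16.7%) at 15 d, 7 in 2CLC against mESC in DMSO (42.6%) and 7 in dTAG-13 (39.8%), and 3 and 1 for dTAG-13 in sorted mESC (16.7%) and 2CLC (19.4%). With centring on the median gene, Dppa3 (0.97) left and Tet3 (-1.01) entered the genes past 2-fold in Recovery against dTAG-13, and Tet3 (-0.95) left and Dnmt3a (1.01) entered in 2CLC against mESC in dTAG-13. Dppa3 in Recovery against dTAG-13 dropped out with a pseudocount of 10 or a mean of at least 100, which left 0, and Tet3 in 2CLC against mESC in dTAG-13 was below 2-fold with a pseudocount of 10 (-0.96). No paired analysis was possible because the other 3 experiments were analysed as group means. With 3 libraries per group, 2-fold changes were often missed in simulated data.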
